A study of Mus musculus with 6 samples.

Results

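The 10 genes described here are hepatic glutathione S-transferases (GSTs) of mice, Gsta2, Gsta3 and Gsta4 of the alpha class, Gstm1, Gstm2, Gstm3 and Gstm4 of the mu class, Gstp1 of the pi class, Gstt1 of the theta class and Gstk1 of the kappa class. They were chosen by symbol, and each of the 10 matched 1 of the 52550 Ensembl gene identifiers in the count table. Liver RNA was sequenced from 3 mice carrying the Slc7a11-LTG transgene (TG) and from 3 controls (WT). Every animal was a male aged 8 weeks that had been on a methionine- and choline-deficient (MCD) diet for 1 week, so both groups share the diet and no liver on another diet enters any comparison. The livers are called TG1 to TG3 and WT1 to WT3 by replicate. The labels used here name neither the promoter of the transgene nor the cells that express it.

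GSTs are dimeric enzymes that join the thiol of glutathione to electrophiles, among them drug metabolites and products of lipid peroxidation. The conjugates leave the hepatocyte through ABC transporters of the Abcc family and are trimmed to mercapturates. The alpha, mu and pi classes are cytosolic and abundant in liver, the theta class is a more distant cytosolic branch, and the kappa class sits in mitochondria and peroxisomes and belongs to a separate evolutionary line. Several alpha and mu genes are known targets of the transcription factor NRF2, which binds the antioxidant response element (ARE). Slc7a11 encodes xCT, which imports cystine, a source of the cysteine in glutathione.

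The 250 bases before the annotated start site of 4 members are shown, 5′ to 3′ on the strand of the gene, from RefSeq on GRCm38.p6. Gsta3 is shown as the member with the smallest p in the comparison, Gstp1 as the one with the smallest spread between livers, and Gstm1 and Gstm3 as neighbours in the mu cluster of which Gstm3 had the larger spread. The windows lie at chr1:21240335-21240584 (plus strand, Gsta3), chr3:108017819-108018068 (minus, Gstm1), chr3:107969175-107969424 (minus, Gstm3) and chr19:4037913-4038162 (minus, Gstp1). Capitals mark the ARE core TGACNNNGC in Gsta3, the TATA box letters TATAAA in Gstm1 and the AP-1 core TGANTCA in Gstp1; Gstm3 held none of these.
Gsta3: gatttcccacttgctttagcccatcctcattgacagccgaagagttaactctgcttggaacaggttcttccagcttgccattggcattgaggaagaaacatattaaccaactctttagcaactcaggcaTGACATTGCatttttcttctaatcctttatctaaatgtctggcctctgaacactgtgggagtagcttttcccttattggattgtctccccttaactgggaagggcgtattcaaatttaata
Gstm1: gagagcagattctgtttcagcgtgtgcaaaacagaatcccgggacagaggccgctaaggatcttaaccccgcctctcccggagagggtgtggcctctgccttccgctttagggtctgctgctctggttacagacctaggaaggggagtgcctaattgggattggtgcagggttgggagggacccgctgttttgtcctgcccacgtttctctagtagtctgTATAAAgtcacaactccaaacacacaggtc
Gstm3: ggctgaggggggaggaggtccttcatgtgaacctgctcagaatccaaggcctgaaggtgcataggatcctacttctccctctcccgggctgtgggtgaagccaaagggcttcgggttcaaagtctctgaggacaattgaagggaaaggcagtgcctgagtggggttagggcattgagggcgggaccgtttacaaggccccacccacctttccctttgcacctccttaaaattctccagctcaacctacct
Gstp1: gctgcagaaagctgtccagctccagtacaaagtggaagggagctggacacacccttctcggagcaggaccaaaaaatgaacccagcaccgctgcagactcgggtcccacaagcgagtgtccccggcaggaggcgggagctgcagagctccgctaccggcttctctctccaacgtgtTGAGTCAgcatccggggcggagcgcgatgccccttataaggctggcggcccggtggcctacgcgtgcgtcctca

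Of the 10 members, 9 had promoter windows of 300 bases in the RefSeq table (250 bases before the start site and 50 after it), 11 windows in all. Each motif was searched on both strands. The ARE core TGACNNNGC occurred in the window of 1 member, Gsta3, at bases -121 to -113 from the start site, and in 12.4% of all 32851 promoter windows. The AP-1 core TGANTCA occurred in the window of 1 member, Gstp1, at -74 to -68, and in 7.81% of all windows. TATAAA occurred in the windows of 2 members, Gstm1 at -30 to -25 and Gsta2 at -246 to -241 on the other strand, against 13.6% of all windows. These shares give the members' matches as a description of letters.

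Several GST genes share long unchanged stretches with relatives, which bears on how far reads can be given to 1 gene. Of all distinct 50-base stretches in the annotated transcripts of Gsta2, 49.8% also occurred in a transcript of another gene, most often Gsta1. The share was 33.7% for Gstp1, all of it with Gstp2, 28.8% for Gstm3, most often with Gm8834, and 18.9% for Gstm1, most often with Gstm2-ps1. It was 5.65% for Gstm2, 0.273% for Gsta3 and 0% for Gsta4, Gstm4, Gstt1 and Gstk1. The values of Gsta2, Gstp1, Gstm3 and Gstm1 are therefore uncertain as single genes, since the handling of reads with several matches is not given in the sources used here. An antisense gene, Gm28836, overlaps Gsta3, but held only 1 to 17 counts per library beside 6545 to 20971 for Gsta3.

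Total counts lay between 16016640 and 17463329 per library, and a member held between 191 and 35733 counts in a library. Slc7a11 itself, the check of the transgene, lay at 4416, 1377 and 2907 CPM (read counts relative to a library size scaled by TMM) in TG1, TG2 and TG3 and at 2.92, 3.33 and 10.6 CPM in WT1, WT2 and WT3, so the libraries matched their labels. TG replicates 1 and 2 carried more transcripts of macrophage markers than the other 4 livers. The summed level of 12 such markers, Adgre1 and Cd68 among them, was 2128, 3542 and 660 CPM in TG1, TG2 and TG3 and 473, 404 and 661 CPM in WT1, WT2 and WT3, and all 12 were detected. The summed level of 12 hepatocyte markers, led by Alb, was 110979, 94445 and 93221 CPM in TG livers, against 141982, 182415 and 96109 CPM in WT livers. In bulk liver RNA, fewer hepatocytes and less RNA of a gene per hepatocyte cannot be told apart.

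GST transcripts together were low in 2 TG livers and at or above the WT level in the third. The summed level of the 10 members was 1704, 2051 and 4385 CPM in TG1, TG2 and TG3, against 3670, 3568 and 4117 CPM in WT1, WT2 and WT3. Means with SD (n = 3 each) were 2714 ± 1458 CPM for TG and 3785 ± 292 CPM for WT. With library size only in place of TMM they were 2928 ± 1844 CPM for TG and 3676 ± 879 CPM for WT, a wider WT spread. The groups overlapped, because TG replicate 3 exceeded every WT liver while TG replicates 1 and 2 lay below all of them. The difference of the means, -1072 CPM, was smaller than the SD of the TG livers. It was -563 CPM without TG replicate 1, -714 CPM without TG replicate 2 and -1904 CPM without TG replicate 3. The 2 livers with low GST sums were those with the high macrophage marker sums, and the part of this in the GST values was not tested.

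**Figure D1:**
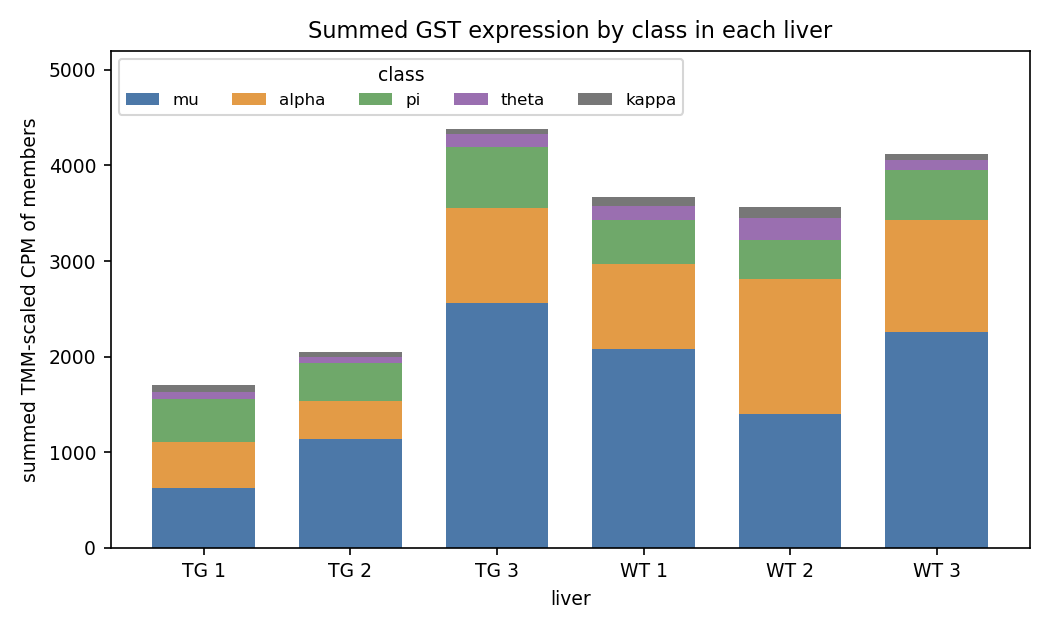
Stacked bars give the summed TMM-scaled CPM of the GST members in each liver (x axis: TG replicates 1 to 3, then WT replicates 1 to 3), split by enzyme class. TG replicates 1 and 2 reach 1704 and 2051 CPM, TG replicate 3 reaches 4385 CPM, and the WT livers lie between 3568 and 4117 CPM.

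The mu and alpha classes made up most of this difference in level. The 4 mu genes summed to 625, 1135 and 2566 CPM in TG1, TG2 and TG3 and to 2081, 1398 and 2263 CPM in WT1, WT2 and WT3. The 3 alpha genes summed to 482, 405 and 993 CPM in TG livers, against 884, 1413 and 1167 CPM in WT livers. In both classes TG replicates 1 and 2 lay below every WT liver, whereas TG replicate 3 was above every WT liver for mu and between WT replicates 1 and 3 for alpha. The pi class, Gstp1 alone, lay at 448, 389 and 636 CPM in TG livers and at 463, 408 and 519 CPM in WT livers, with overlapping groups.

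No member passed the test between genotypes. In edgeR (quasi-likelihood F test, p adjusted after Benjamini and Hochberg over 14031 genes), 0 of 10 members and 0% of all tested genes were called at an adjusted p of 0.05, and the members' adjusted p lay between 0.446 and 0.992. At an unadjusted p below 0.05 the test gave 1 member, Gsta3, lower in TG, beside 2.37% of all genes lower, 8.68% higher and 11.1% in either direction (1551 genes). DESeq2 called 0 members and 2.71% of the genes (373), and limma voom called 0 members and 0.00713% of the genes (1 gene). The log2 fold change was below 0 for 8 of 10 members, beside 53.8% of all tested genes, with a median of -0.41 for the members and -0.03 for all genes. The 12 hepatocyte markers were alike in this median, at -0.43 with 10 below 0, but the order of livers differed between the 2 sums. TG replicate 3 had the highest GST sum (4385 CPM) and the lowest hepatocyte marker sum (93221 CPM). TG replicate 2 was low in both (2051 and 94445 CPM). Most of the hepatocyte marker sum was Alb (69209 CPM in TG3), so its order of livers is largely that of Alb. Other markers of the list differed. Among TG livers, Tat and Ttr were highest in TG3 (1934 and 3065 CPM), Cps1 in TG1 and Trf in TG2. The part of hepatocyte RNA in the GST values was not tested. The groups did not overlap for 0 members, against 15.4% of all tested genes, 6.14% with TG lower.

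**Figure D2:**
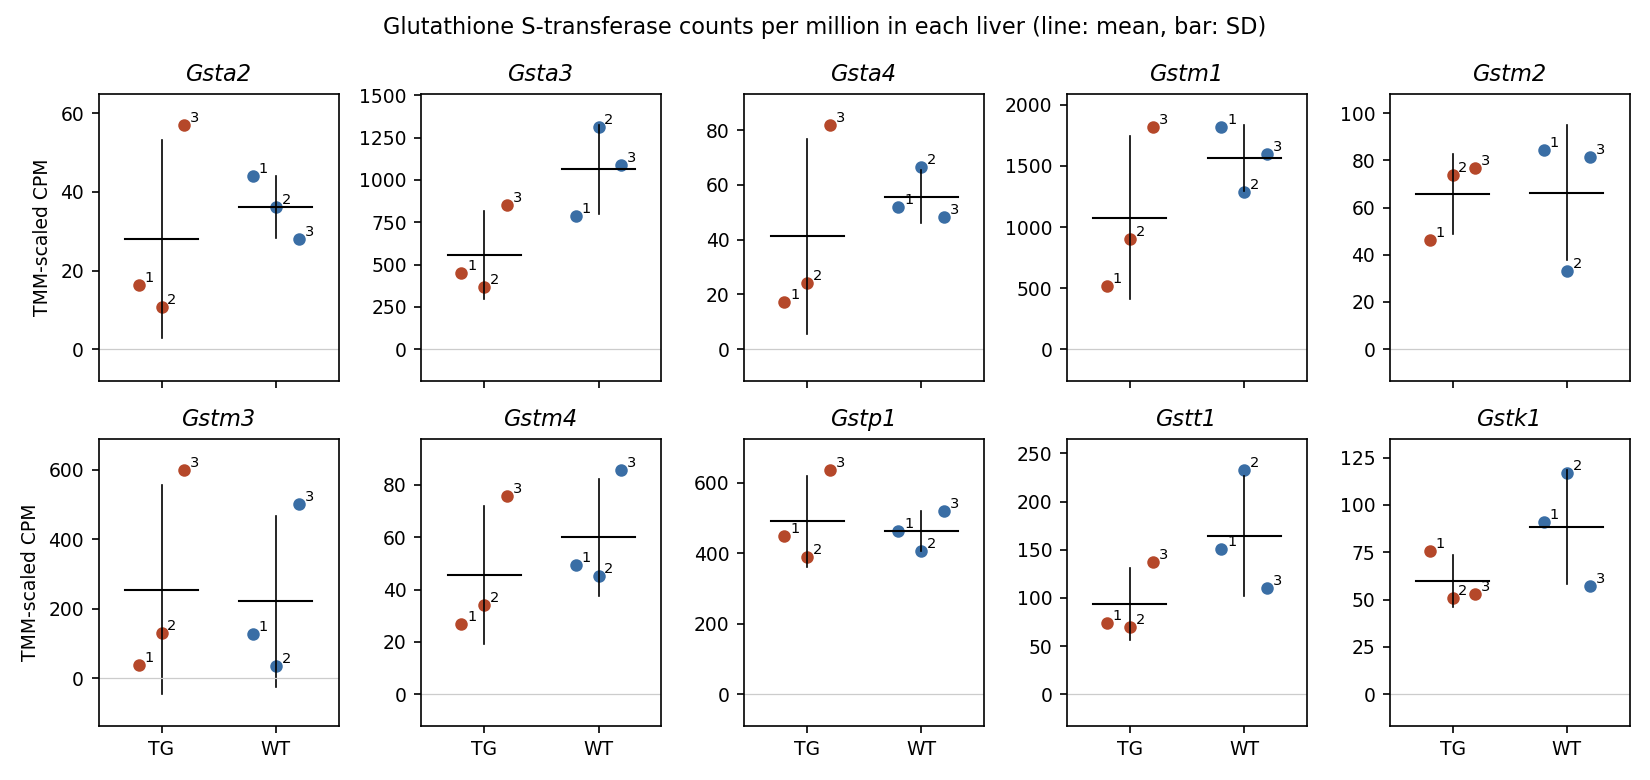
Each panel shows 1 GST gene, with TMM-scaled CPM on the y axis (own scale, with 0 marked), TG livers on the left and WT livers on the right; numbers are replicates, horizontal lines means and vertical bars SD (n = 3). In every panel the 2 groups overlap, and TG replicate 3 is the highest of the 3 TG livers for all members except Gstk1.

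Among the alpha genes, which reduce and conjugate products of lipid peroxidation, Gsta3 showed the largest fold change of the 10. Gsta3, which in mice conjugates aflatoxin epoxide (ENSMUSG00000025934, chromosome 1, 21240589 to 21265661, plus strand, build mm10), lay at 449, 370 and 854 CPM in TG1, TG2 and TG3 and at 788, 1310 and 1091 CPM in WT1, WT2 and WT3. TG replicates 1 and 2 were below every WT liver and TG replicate 3 lay between WT replicates 1 and 3. Means with SD (n = 3 each) were 557 ± 260 CPM for TG and 1063 ± 262 CPM for WT, a log2 fold change of -0.93 (SE 0.40). Its unadjusted p was 0.0484 and its adjusted p 0.446 with edgeR's quasi-likelihood test. Over all alternatives its adjusted p ranged from 0.122 to 0.954 and its log2 fold change from -1.40 to -0.70.

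Gsta4, which conjugates 4-hydroxynonenal, an aldehyde of lipid peroxidation (chromosome 9, 78182774 to 78209349, plus strand), lay at 17.4, 24.2 and 81.9 CPM in TG1, TG2 and TG3 and at 52.1, 66.6 and 48.3 CPM in WT1, WT2 and WT3. The WT livers lay within a narrow band, and TG livers lay on both sides of it. Gsta2, an alpha gene inducible by antioxidants (chromosome 9, 78331018 to 78355788, minus strand), lay at 16.4, 10.8 and 57.0 CPM in TG livers, against 44.1, 36.2 and 28.1 CPM in WT livers, again on both sides. Their log2 fold changes were -0.43 (SE 0.54) and -0.36 (SE 0.57), with adjusted p of 0.813 and 0.860 from edgeR. In TG livers the highest value exceeded the lowest 4.72-fold for Gsta4 and 5.28-fold for Gsta2, and in WT livers 1.38-fold and 1.57-fold.

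The 4 mu genes lie in 1 cluster on chromosome 3, all on the minus strand. Gstm1 (108012255 to 108017973) had the highest mean CPM of the members in both groups. It lay at 515, 898 and 1815 CPM in TG1, TG2 and TG3 and at 1821, 1285 and 1595 CPM in WT1, WT2 and WT3. TG replicate 3 was close to the highest WT liver and the other 2 TG livers were below all WT livers. Its log2 fold change was -0.54 (SE 0.47), with an adjusted p of 0.720 from edgeR. Gstm4 (108040408 to 108044894) had the same order of TG livers, at 27.0, 34.2 and 75.8 CPM in TG livers, against 49.2, 45.1 and 85.7 CPM in WT livers, and a log2 fold change of -0.39 (SE 0.43). Gstm2 (107981702 to 107986453) lay at 46.2, 74.0 and 76.7 CPM in TG livers, against 84.3, 33.3 and 81.4 CPM in WT livers, and its lowest value was in WT replicate 2. Its log2 fold change was -0.02 (SE 0.37), and its sign turned under 6 of 15 alternatives.

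Gstm3 (107963696 to 107969283) varied most of all members, and it did so within both groups. It lay at 36.4, 129 and 599 CPM in TG1, TG2 and TG3 and at 127, 34.3 and 501 CPM in WT1, WT2 and WT3. Replicate 3 of each genotype was the highest liver of its group, and TG replicate 1 and WT replicate 2 were the lowest, so the order did not follow genotype. The highest value exceeded the lowest 16.4-fold within TG and 14.6-fold within WT livers. The log2 fold change was 0.21 with an SE of 1.14, and its adjusted p was 0.967 with edgeR. It was -1.46 (SE 1.07, adjusted p 0.668) without TG replicate 3, -0.073 when WT1 was left out, -0.30 when WT2 was and 1.68 when WT3 was.

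**Figure D3:**
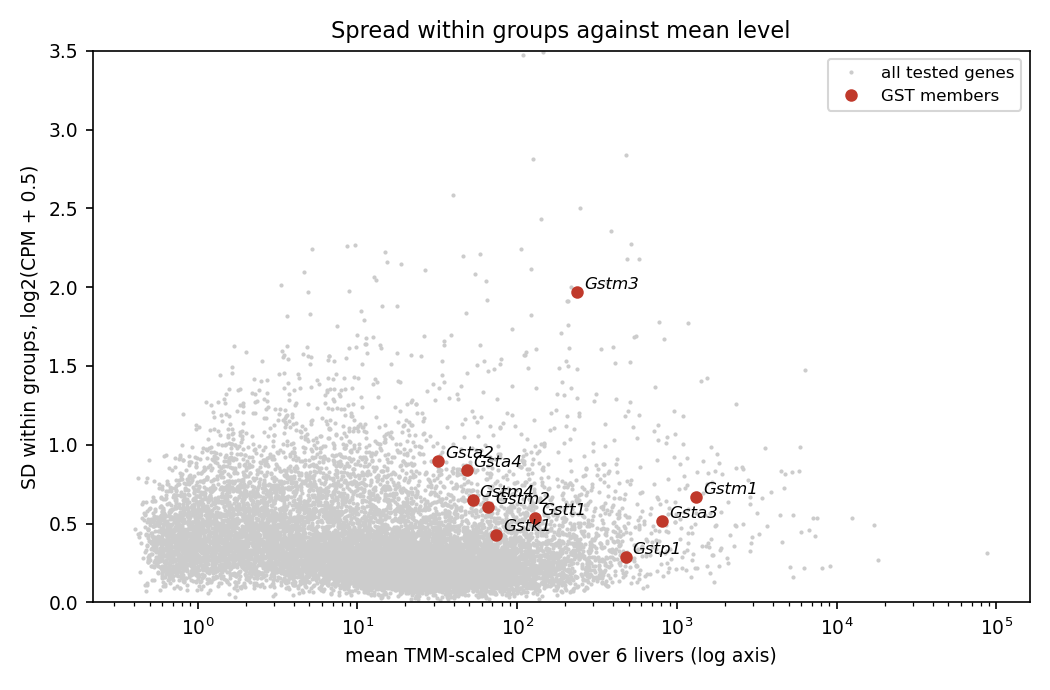
Each grey point is 1 of 14031 tested genes, with its mean TMM-scaled CPM over 6 livers on the x axis (log scale) and its SD within groups on the log2(CPM + 0.5) scale on the y axis; red points are the GST members. Gstm3 lies at 1.97 and Gstp1 at 0.29, while the median of genes with a mean of at least 10 CPM is 0.26.

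The spread within groups set the members apart from each other. On the log2(CPM + 0.5) scale, the SD within groups was 1.97 for Gstm3, larger than that of 99.7% of the genes with a mean of at least 10 CPM, whose median was 0.26. It was 0.89 for Gsta2, 0.84 for Gsta4, 0.67 for Gstm1 and 0.65 for Gstm4, and between 0.43 and 0.60 for Gstm2, Gstt1, Gsta3 and Gstk1. Gstp1 had 0.29, larger than 56.4% of the same genes with a mean of at least 10 CPM. In 7 of the members the TG livers varied more than the WT livers, and Gsta4 showed this most, with an SD of 1.16 in TG and 0.24 in WT livers. Gstm2 and Gstk1 varied more among WT livers, and Gstt1 varied alike in both (0.53 in TG, 0.54 in WT).

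Gstp1, known as the main pi enzyme of male mouse liver (chromosome 19, 4035407 to 4037985, minus strand), had one of the smallest differences between genotypes. It lay at 448, 389 and 636 CPM in TG1, TG2 and TG3 and at 463, 408 and 519 CPM in WT1, WT2 and WT3. Means with SD (n = 3 each) were 491 ± 129 CPM for TG and 463 ± 55.6 CPM for WT, a log2 fold change of 0.08 (SE 0.27) with an adjusted p of 0.934 from edgeR. Its sign turned without TG replicate 3, at -0.17. The share of Gstp1 in the summed level per kilobase of merged exon was 30.7%, 20.7% and 15.7% in TG1, TG2 and TG3. In WT livers it was 14.0%, 14.4% and 14.4%. Each TG liver lay above every WT liver in this share, TG replicate 3 by little, and no test was made. The shares of the alpha, mu, theta and kappa classes overlapped between the groups. A share also depends on the levels of the other members and on the exon lengths used.

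Gstt1, a theta enzyme that conjugates small halogenated alkanes (chromosome 10, 75783813 to 75798584, minus strand), lay at 73.6, 70.2 and 137 CPM in TG1, TG2 and TG3 and at 151, 233 and 110 CPM in WT1, WT2 and WT3. WT replicate 3 was below TG replicate 3, and the other WT livers were above all TG livers. Its log2 fold change was -0.81 (SE 0.37), with an unadjusted p of 0.0598 and an adjusted p of 0.480 from edgeR. Gstk1, the kappa enzyme (chromosome 6, 42245935 to 42250447, plus strand), lay at 75.9, 51.1 and 52.97 CPM in TG livers and at 91.1, 117 and 57.1 CPM in WT livers. Of the TG livers, TG replicate 1 was here the highest, unlike in any other member. Its log2 fold change was -0.56 (SE 0.29), with an adjusted p of 0.554. It was -0.31 without WT replicate 2, and -0.80 without WT replicate 3 (edgeR, unadjusted p 0.0116).

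The order of the livers differed between members. TG replicate 3 was above the other TG livers for 9 of 10 members, beside 31.9% of all tested genes. The first principal component over all tested genes held 43.3% of the variance. On it TG1, TG2 and TG3 lay at -37.1, -66.8 and 2.92, against 29.9, 60.1 and 10.9 for WT1, WT2 and WT3. The livers were spread out within both groups, with TG2 and WT2 at the ends and TG3 next to WT3. TG replicates 1 and 2 were both below every WT liver for 6 members, Gsta2, Gsta3, Gsta4, Gstm1, Gstm4 and Gstt1, beside 11.6% of all tested genes; this count was chosen after the values were seen. TG replicate 3 was above every WT liver for 4 members, Gsta2, Gsta4, Gstm3 and Gstp1, beside 20.5% of all genes. Among WT livers in TMM-scaled CPM, WT replicate 2 was the highest for Gsta3, Gsta4, Gstt1 and Gstk1 and the lowest for Gstm1, Gstm2, Gstm3, Gstm4 and Gstp1. On this scale the mu genes and the pi gene stood opposite to 4 alpha, theta and kappa genes in this liver. For Gsta3 this rests on the TMM factor, 0.826 in WT2 and 1.13 in WT3. Unscaled, Gsta3 held 17317 of 16016640 counts in WT2 and a larger share, 20971 of 17021394, in WT3. Gsta4 held 880 counts in WT2 and 929 in WT3, nearly equal shares of the same totals. Gstt1 and Gstk1 held their highest WT counts in WT2 also without scaling.

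**Figure D4:**
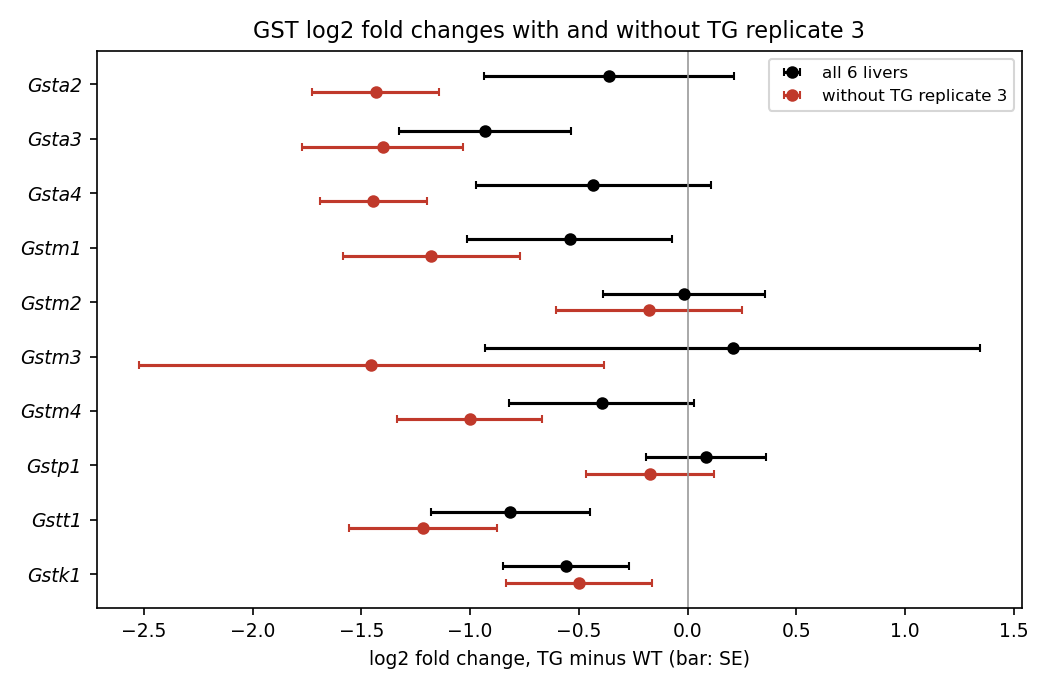
Points give the log2 fold change (TG minus WT) of each member and bars its SE, from edgeR on all 6 livers (black) and without TG replicate 3 (red). Without that liver, all 10 members lie below 0, and Gsta4 lies at -1.45 instead of -0.43.

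Leaving out TG replicate 3 moved most members by more than their SE. The log2 fold change was then below 0 for 10 of 10 members, beside 56.2% of all tested genes. At an unadjusted p below 0.05, 6 members were lower, Gsta2, Gsta3, Gsta4, Gstm1, Gstm4 and Gstt1, beside 3.11% of all genes lower and 13% in either direction. They are the same 6 in which TG replicates 1 and 2 lay below every WT liver. This fit leaves only those TG livers, so its outcome was largely set by that pattern and gives no separate support. Gsta4 was lower in TG replicates 1 and 2 than in WT livers, with an adjusted p of 0.0396 in edgeR's quasi-likelihood test (log2 fold change -1.45, SE 0.25). It was 1 of 17 genes called lower, or 0.117% of those tested. Gsta2 had a log2 fold change of -1.43 (SE 0.29) and an adjusted p of 0.0564. Without TG replicate 1 and without TG replicate 2 no member had an unadjusted p below 0.05, and without WT replicate 2 none did either. Leaving out WT1 gave 1 such member, Gsta3, and leaving out WT3 gave 2, Gstt1 and Gstk1, all lower in TG. Over all alternatives, the adjusted p of Gsta4 lay between 0.0396 and 0.993.

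Levels were compared between members per kilobase of merged exon. Merged exons cover all annotated transcripts of a gene. They spanned 4344 bases for Gsta3, against 1177 (Gsta2) to 1707 (Gstm4) for the other members. The place of Gsta3 in the order therefore depends on this length. Before the division Gsta3 exceeded Gstm1 in WT2, at 1310 against 1285 CPM. In WT livers Gstm1 had the highest level per kilobase, with 1236, 872 and 1083 CPM per kilobase, above every value of any other member. Gstp1 (264 to 335) and Gsta3 (181 to 302) came next with overlapping ranges, then Gstm3 (26.1 to 382) and Gstt1 (72.1 to 152). Gstk1, Gsta4, Gstm2, Gstm4 and Gsta2 averaged between 60.2 and 30.7 CPM per kilobase in this order, and neighbours in it overlapped. In TG livers Gstm1 lay at 350, 610 and 1232 CPM per kilobase and overlapped Gstp1, at 289, 252 and 411. The ratio of Gstm1 to Gstp1 per kilobase was 1.21, 2.42 and 3.00 in TG1, TG2 and TG3 and 4.13, 3.31 and 3.23 in WT1, WT2 and WT3, lower in each TG liver than in any WT liver. This ratio is given as a description, with no test, since it was singled out after the values were seen. The other 2 ratios computed overlapped between groups. Gstm1 to Gstm3 was 12.6, 6.19 and 2.70 in TG livers and 12.8, 33.4 and 2.83 in WT livers, and Gstm1 to Gstm2 was 12.7, 13.8 and 26.96 in TG livers and 24.6, 44.0 and 22.3 in WT livers. Reads shared between mu genes could enter both terms of these 2 ratios.

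**Figure D5:**
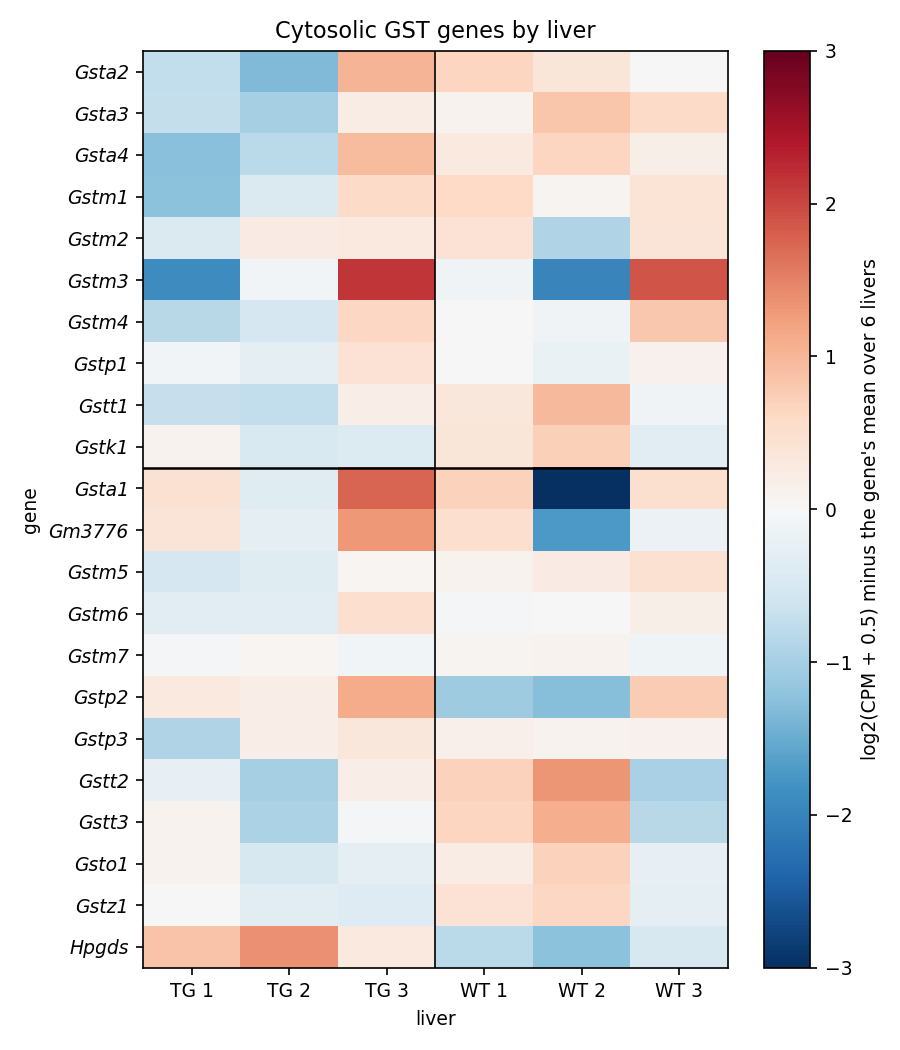
Colours give log2(CPM + 0.5) minus the gene's mean over 6 livers (red higher, blue lower) for the 10 members above the line and 12 other tested cytosolic GST genes below it, in TG livers (left) and WT livers (right). Hpgds is red in all TG livers and blue in all WT livers, while Gstm3 is red in replicate 3 of both genotypes.

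Cytosolic GST genes outside the 10 were read beside them. Of 15 such genes in the table, 12 were tested, 0 passed at an adjusted p of 0.05 and 1 was higher at an unadjusted p below 0.05, with a median log2 fold change of -0.10. This was Hpgds, the sigma-class GST that makes prostaglandin D2 in haematopoietic cells, at 8.32, 12.0 and 5.49 CPM in TG1, TG2 and TG3 and at 2.29, 1.59 and 2.96 CPM in WT1, WT2 and WT3. Each TG liver lay above every WT liver, and the log2 fold change was 1.91 (SE 0.39, unadjusted p 0.00153, adjusted p 0.343 with edgeR). Macrophage markers had the same direction, with a median log2 fold change of 2.01, and all 12 had an unadjusted p below 0.05. Only 3 of the 12, Cd68, Cd5l and Gpnmb, had groups that did not overlap as for Hpgds, and Cd68 lay at 45.5, 48.7 and 24.5 CPM in TG livers, against 12.8, 8.17 and 13.8 CPM in WT livers. In the other 9 markers TG3 lay within the WT range. Among them, Adgre1 lay at 82.3, 163 and 20.6 CPM in TG livers, against 15.7, 10.3 and 28.1 CPM in WT livers. The part of macrophage RNA in the Hpgds value was not tested.

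Of the zeta and omega enzymes, Gstz1, the maleylacetoacetate isomerase of tyrosine breakdown, lay at 516, 417 and 400 CPM in TG livers, against 704, 803 and 429 CPM in WT livers. Gsto1 lay at 108, 73.0 and 83.1 CPM in TG livers, against 117, 164 and 85.3 CPM in WT livers, and in both genes WT replicate 3 was close to the TG livers. Gstm5 lay at 3.77, 4.24 and 5.79 CPM in TG, below each WT liver at 6.03, 6.73 and 7.80 CPM, with an adjusted p of 0.505. Gsta1, which shares 90.5% of its 50-base stretches with other genes, lay at 10.6, 5.88 and 26.7 CPM in TG livers, against 12.6, 0.53 and 10.8 CPM in WT livers. Among the 6 membrane-bound enzymes of the MAPEG family, 4 were tested, 0 passed at an adjusted p of 0.05, and 1, Alox5ap, was higher at an unadjusted p below 0.05. Mgst1, the microsomal GST and the most abundant of them, lay at 1769, 1335 and 1236 CPM in TG livers, against 2027, 1911 and 1200 CPM in WT livers. Alox5ap, the activating protein of 5-lipoxygenase, had a log2 fold change of 2.07 (SE 0.72, adjusted p 0.385), and WT replicate 3 slightly exceeded TG replicate 3, at 1.25 against 1.22 CPM.

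Genes before and after conjugation were also tested. Of 22 genes for conjugate export and mercapturate formation, 0 passed at an adjusted p of 0.05, with a median of -0.05. At an unadjusted p below 0.05 (edgeR), 4 were higher and 0 lower, beside 8.68% and 2.37% of all tested genes. The 4 were Abcc1, Abcc5, Dpep2 and Cndp2. Abcc1, an exporter of glutathione conjugates, lay at 9.59, 16.7 and 3.504 CPM in TG livers, against 3.30, 2.04 and 2.96 CPM in WT livers. All 4 had non-overlapping groups, Abcc1 by little. In the whole list the groups did not overlap for 6 genes, all higher in TG, beside 15.4% of all tested genes in either direction. Of 10 glutathione supply genes 0 passed, and 2 were higher (Slc7a11 and its partner Slc3a2) and 1 lower (Chac2) at an unadjusted p below 0.05. Gclc lay at 294, 210 and 530 CPM in TG livers, against 212, 316 and 441 CPM in WT livers, with its highest TG value in TG replicate 3 as for 9 of the 10 members. Gclm lay at 163, 234 and 268 CPM in TG livers, against 218, 303 and 211 CPM in WT livers.

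Of 20 further NRF2 targets 0 passed, and their median was 0.06. At an unadjusted p below 0.05 (edgeR), 1 was higher (Hmox1) and 0 were lower, beside 8.68% and 2.37% of all tested genes. CAR and PXR are nuclear receptors that are also known to induce GST genes. Of 16 tested genes for them and their P450 targets, 0 passed. At an unadjusted p below 0.05 (edgeR), 3 were lower (Cyp2c37, Cyp2c50 and Cyp2c54), beside 2.37% of all tested genes. A log2 fold change below 0 was found for 14 of the 16, beside 53.8% of all tested genes. The median was -0.75, against -0.03 for all tested genes. Cyp2c50 lay at 121, 77.5 and 223 CPM in TG livers, against 416, 559 and 237 CPM in WT livers. Like Gsta3 in TMM-scaled CPM, it was highest in WT replicate 2 and, among TG livers, in TG replicate 3. Of the 13003 genes with a mean of at least 1 CPM, the closest to Gsta3 across the 6 livers was Cyp2c68, at a root mean square distance of 0.13 in centred log2(CPM + 0.5). Sord, sorbitol dehydrogenase, and 0610031O16Rik followed, each at 0.17. Cyp2c68 lay at 148, 148 and 268 CPM in TG livers, against 244, 467 and 358 CPM in WT livers. Since Cyp2c68 was picked for its closeness to Gsta3 over these same livers, a shared order of livers follows from the choice.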

How the data were processed

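Read counts per gene came from 6 mouse livers, 3 TG and 3 WT. Per the submitters' processing notes, TopHat, Cufflinks and the build mm10 were used; versions, the counting program, its annotation, strand setting and handling of reads with several matches were each not given in the sources used here. Labels name genomic DNA as the molecule, while their protocols describe RNA libraries. The authors deposited whole-number counts, not normalized, for 52550 Ensembl identifiers, of which 52403 matched a symbol; 0 count columns belonged to no sample. At 16016640 to 17463329 counts per library, 3 counts correspond to 0.172 to 0.187 CPM before TMM scaling, a limit that covers counting error only.

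Genes were filtered with filterByExpr, leaving 14031. TG and WT were compared with edgeR 4.0.16 in R 4.3.3 by a two-sided quasi-likelihood test (TMM, robust), with p-values adjusted after Benjamini and Hochberg over all tested genes and a threshold of 0.05. The SE is the log2 fold change over the root of F. Alternatives were DESeq2 1.42.0, limma 3.58.1 voom, other scalings and filters, no robust estimation, libraries left out in turn and a replicate block. Fits were tested on simulated data. CPM are TMM-scaled; exon lengths, coordinates and transcript stretches came from GENCODE M21 (GRCm38). Replicates are separate mice per the series' design text.

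The members, lists and the rule for named genes were chosen with earlier results of these data known. The rule took all 10 members, Slc7a11, Gclc and Gclm, up to 4 genes per list with the smallest p, the first marker of each cell type and the 3 genes nearest to the member with the smallest p. The listed GST and MAPEG genes were left out of the search for nearest genes. Gsta1, Gm28836, Mgst1 and the AP-1 and TATA motifs were added after values or windows were seen. Marker lists of neutrophils, lymphocytes, cholangiocytes, stellate and endothelial cells were read beside the others.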

Additional observations from a re-analysis of the deposited data

How the results depend on the processing

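No GST member was called with edgeR under any scaling, filter or dispersion setting, with the replicate block, with DESeq2 or with limma voom; over the libraries left out in turn 0 to 1 was called, Gsta4 without TG replicate 3. Over all genes, edgeR called 0, DESeq2 373 and limma voom 1, and 0 to 305 were called with a library left out, the highest without TG replicate 3. Genes at an unadjusted p below 0.05 were 1551, and 759 to 2328 with a library left out (759 without TG replicate 2, 2328 without WT replicate 3). Members at that level, beside all genes, were 1 (1551 of 14031 genes) with all livers, 0 (1410 of 14031) with library size only, 0 (1538 of 14031) with upper quartile scaling, 3 (2008 of 25288) with no filter on low counts, 2 (1735 of 14031) with DESeq2, 2 (1266 of 14031) with limma voom and 0 to 6 with a library left out. Library size only moved the median of all genes to 0.09 (-0.03 with TMM), and 1315 of 1410 genes at an unadjusted p below 0.05 were then higher in TG, beside 1218 of 1551 with TMM. The sign of Gstm2 turned with library size only (0.071), limma voom (0.073), the replicate block (0.057) and when TG replicate 1 (0.19), WT replicate 1 (0.19) or WT replicate 3 (0.15) was left out. The sign of Gsta2 turned without TG replicate 2 (0.041), of Gstp1 without TG replicate 3 (-0.17), and of Gstm3 without TG replicate 3 (-1.46), or when WT replicate 1 (-0.073) or 2 (-0.30) was left out. With a library left out, the log2 fold change ran from -1.43 to 0.041 for Gsta2, -0.34 to 0.19 for Gstm2, -1.46 to 1.68 for Gstm3 and -0.17 to 0.23 for Gstp1. It kept its sign but ran from -1.40 to -0.70 for Gsta3, -1.45 to -0.065 for Gsta4, -1.18 to -0.21 for Gstm1, -1.003 to -0.037 for Gstm4, -1.22 to -0.48 for Gstt1 and -0.80 to -0.31 for Gstk1; the cause was not tested. Same-numbered livers were not paired by the labels, and the correlation of their deviations from the group means was 0.15, -0.22 and 0.10 for replicates 1 to 3. With the replicate block, 0 members were called, and 1 member and 1109 of 14031 genes had an unadjusted p below 0.05.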

Other observations

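Marker lists of other cell types gave these values. Summed neutrophil markers lay at 159, 288 and 5.49 CPM in TG1, TG2 and TG3 and 8.51, 3.03 and 5.88 CPM in WT1, WT2 and WT3, so TG replicate 3 lay within the WT range. Summed B and T cell markers lay at 26.5, 31.5 and 7.47 CPM in TG livers, against 10.5, 8.17 and 6.76 CPM in WT livers. Cholangiocyte markers summed to 41.6, 52.6 and 47.7 CPM in TG livers, against 38.1, 38.96 and 32.2 CPM in WT livers. Stellate cell markers summed to 431, 382 and 425 CPM in TG livers, against 389, 304 and 375 CPM in WT livers. Endothelial markers summed to 243, 253 and 251 CPM in TG livers, against 266, 93.7 and 197 CPM in WT livers, lowest in WT replicate 2. That liver was also the lowest for 2 of the 10 members, Gstm2 and Gstm3, near its share of 22.1% over all tested genes. With edgeR, 0 genes of these lists passed at an adjusted p of 0.05.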
